A study of Mus musculus with 4 samples.

Results

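The genes described here handle metals and heme in the liver: the metallothionein genes Mt1 and Mt2, the iron genes Hamp, Tfrc, Slc40a1, Trf and Fth1, the copper ferroxidase gene Cp, and Hp and Hpx, whose products bind hemoglobin and heme. These 10 genes were chosen by name, and each was found through the RefSeq accession of its probe. All 10 were matched, by 1 probe each, and all passed the filter on dim probes that left 31074 genes or accessions tested. Gene expression was measured in livers of male C57Bl/6 mice aged 3 months that were mutant for Wrn, the RecQ helicase lost in Werner syndrome. Of these, 4 had received 0.4% vitamin C in the water they drank from weaning on, and 4 had received none; both groups were Wrn mutant and were kept on a reversed light-dark cycle. Each of 4 arrays held total RNA of 1 treated liver in Cy3 and of 1 untreated liver in Cy5, per the labels, which call them biological replicates. The labels give no further detail of the Wrn allele and do not say whether RNA was pooled. A wild-type liver was not analysed here.

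Metallothioneins are small, cysteine-rich proteins that hold zinc and copper, and their genes are switched on by the metal-sensing factor MTF1 and by glucocorticoids and inflammation. Iron travels in plasma on transferrin, enters cells through the transferrin receptor, is stored in ferritin and leaves cells through ferroportin, which hepcidin from the hepatocyte removes from the membrane. Ascorbate, the reduced form of vitamin C, reduces ferric iron. Haptoglobin and hemopexin clear hemoglobin and heme from plasma, and both, like hepcidin and ceruloplasmin, are acute phase products of the hepatocyte.

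Ratios are given as log2 of the treated over the untreated liver of an array, and levels are normalized log2 intensities of 1 liver. No array had its dyes swapped, so treatment and a probe's dye bias cannot be told apart, and the direction rests on the dye labels. The authors' deposited log2 table runs the other way, with correlations of -0.98 to -0.95 with the ratios used here across probes, and with column medians of 0.0014 to 0.0050. Median spot intensities were 379.5 to 530.0 in Cy3 and 813 to 962 in Cy5, against 62.0 to 67.0 and 66.0 to 80.0 on negative control spots. The 5 hepatocyte marker genes measured, of 7 listed, were well above background in both channels of every array, with Alb and Apoa1 among them. All 4 arrays lay on 1 slide with 1 scan date.

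The metallothionein genes are printed first with the sequence before their start, since they are the members described as switched on by MTF1. The RefSeq promoter table (GRCm38.p6) held 7 of the 10 genes; Trf, Slc40a1 and Hp were not among them. The 250 bases before the annotated start of Mt2 lie at chr8:94172368-94172617 and those of Mt1, its neighbour, at chr8:94178839-94179088, both on the plus strand. Capitals mark matches, on either strand, to the core of the metal response element that MTF1 binds, searched as TGCACNC and TGCGCNC.
Mt1: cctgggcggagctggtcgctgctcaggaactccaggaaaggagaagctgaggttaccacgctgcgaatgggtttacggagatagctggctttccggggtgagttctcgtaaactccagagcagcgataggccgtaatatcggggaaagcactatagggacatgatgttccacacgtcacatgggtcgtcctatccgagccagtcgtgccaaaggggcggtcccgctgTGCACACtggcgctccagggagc
Mt2: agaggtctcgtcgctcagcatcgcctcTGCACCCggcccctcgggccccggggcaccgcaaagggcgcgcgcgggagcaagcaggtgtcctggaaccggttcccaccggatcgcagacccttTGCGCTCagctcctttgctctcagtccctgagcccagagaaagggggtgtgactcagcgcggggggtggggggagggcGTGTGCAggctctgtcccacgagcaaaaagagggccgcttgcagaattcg

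The window of Mt2 held 3 matches, of which TGCACCC and TGCGCTC read on the plus strand and GTGTGCA on the minus strand; no match overlapped another. That of Mt1 held 1, TGCACAC, which ends 17 bases before the start. Of 32851 promoter windows of this length in the table, 21.4% held at least 1 match, 10.4% held TGCACNC and 1.26% held 3 or more matches of either; TGCGCNC stood in 4109 windows. Among the other genes with a window, 1 of the 2 windows of Tfrc held 2 matches, which overlap each other, and those of Cp, Hamp, Hpx and Fth1 held 0. A match is a description of letters, and the table's single start of Mt1 and Mt2 was used, so sequence near any other start was not searched. Whether the Mt1 start in the table is the one used in liver was not tested, so the counts of 1 and 3 are not a comparison of the 2 promoters.

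In treated livers Mt1 and Mt2 had ratios above 0 on all 4 arrays, with mean folds of 1.71 and 1.47, while Trf, Fth1, Cp and Hp had ratios below 0 on all 4, with mean folds of 0.663, 0.783, 0.808 and 0.543. Hamp, Tfrc, Slc40a1 and Hpx had ratios on both sides of 0. None of the 10 passed the threshold of limma's test over all genes (adjusted p of 0.144 for the first 6 and 0.418 to 0.974 for the other 4). The value of 0.144 was the smallest of the fit, shared by Trf at rank 14 by p and Mt1 at rank 1007. It therefore does not rank the 6, whose unadjusted p by limma ran from 1.0e-04 (Trf) to 0.0048 (Mt1). At an unadjusted p under 0.05 there were 6 of 10, 2 higher and 4 lower, against 27.7% of all genes tested (8610 of 31074), 11.2% as higher and 16.6% as lower. The same 6 had 1 sign on 4 arrays, against 30.9% of all genes, 14.8% as above and 16.1% as below 0. The median of the 10 means was -0.092, and that of all genes was -0.015. The smallest two-sided p that exact sign flipping of 4 arrays allows is 0.125, and limma's fit over all genes was used instead.

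**Figure D1:**
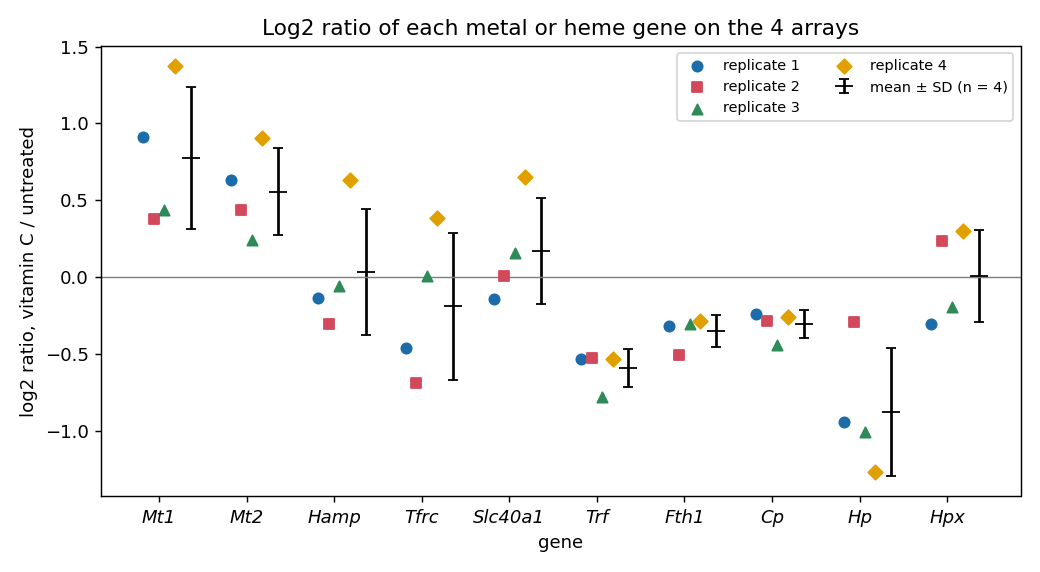
Log2 ratio of vitamin C over untreated (vertical axis) for each of the 10 genes, with 1 symbol per array and the mean ± SD of 4 arrays beside them. Mt1 and Mt2 lie above 0 and Trf, Fth1, Cp and Hp below 0 on every array, and the largest spreads are those of Tfrc, Mt1, Hp and Hamp.

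Mt1 had levels of 12.34, 11.64, 12.30 and 13.24 in the treated livers of replicates 1 to 4 and of 11.43, 11.27, 11.86 and 11.87 in the untreated livers. The treated liver was higher than its partner on each array, yet the groups overlapped, because the treated liver of replicate 2 lay below the untreated livers of replicates 3 and 4. The ratios were 0.91, 0.38, 0.44 and 1.37, with a mean of 0.78 ± 0.46 (SD, n = 4; SE 0.17, adjusted p = 0.144 by limma). This mean lay at percentile 99.9 of all genes tested, and the ratio lay at percentiles 99.8, 99.1, 96.6 and 99.9 on the 4 arrays. The array carries the Mt1 probe on 10 spots, and every spot was above 0 on every array. Repeat spots differed by an SD of 0.092, 0.074, 0.082 and 0.078 within the arrays, which is technical spread and not that between livers.

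**Figure D2:**
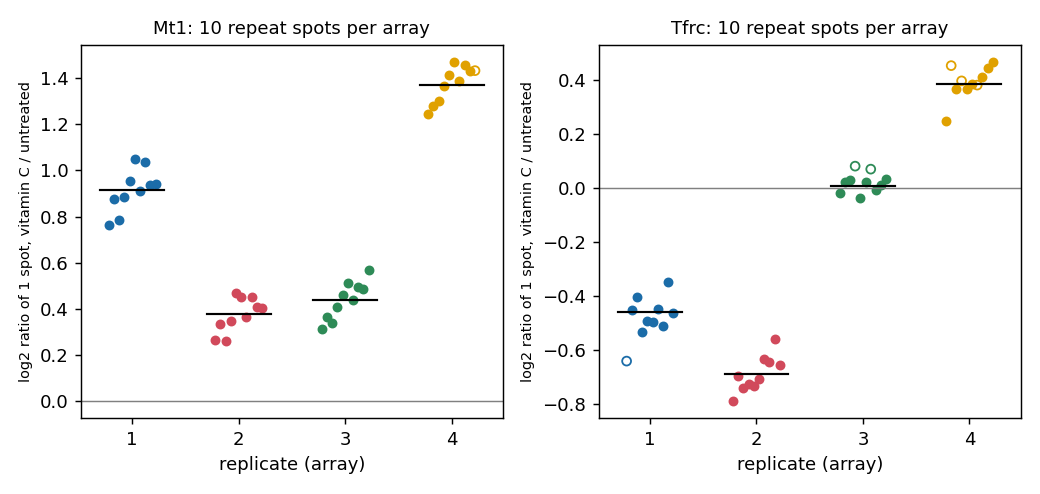
Log2 ratio of each of the 10 repeat spots of Mt1 (left) and Tfrc (right) on each array, with the mean of the spots in use as a bar and spots left out as outliers drawn open. All Mt1 spots lie above 0, while Tfrc runs from a mean of -0.69 on replicate 2 to 0.38 on replicate 4.

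Mt2 had levels of 12.57, 12.24, 12.64 and 13.10 in treated and of 11.94, 11.80, 12.40 and 12.20 in untreated livers. Again only the treated liver of replicate 2 lay within the range of the untreated ones, below the untreated liver of replicate 3. The ratios were 0.63, 0.44, 0.24 and 0.91, a mean of 0.56 ± 0.28 (SD, n = 4; SE 0.11, adjusted p = 0.144 by limma) at percentile 99.7 of all genes. Mt1 and Mt2 were both highest on replicate 4 and next on replicate 1, and on replicates 2 and 3 their order was reversed. The difference of Mt1 minus Mt2 in ratio was 0.28, -0.063, 0.20 and 0.46. By the root mean square difference of the 4 ratios, Mt2 was the third nearest of 16854 named genes to Mt1 (0.290), after Ocln, which encodes a tight junction protein (0.263), and the glutathione transferase gene Gstt2 (0.272). Of the other 8 genes, Slc40a1 came nearest to Mt1, at rank 1792, and Hp stood at rank 16824.

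**Figure D3:**
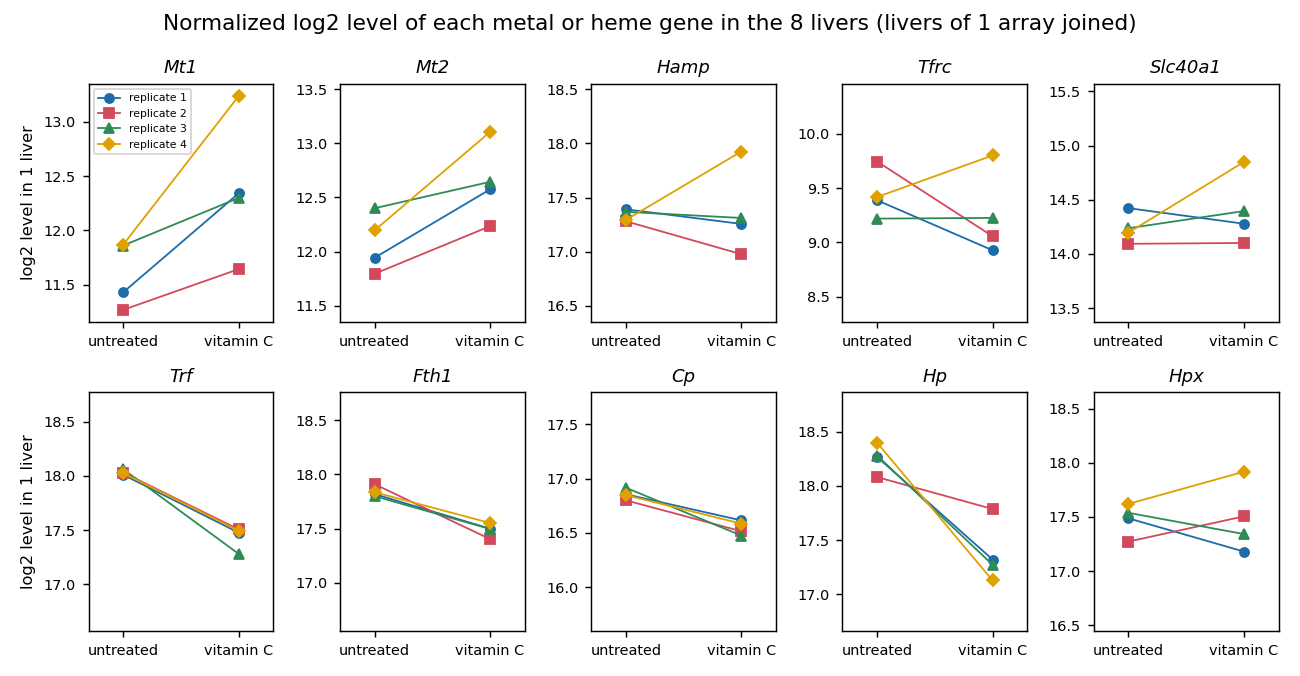
Normalized log2 level (vertical axis, the same span in each panel) in the untreated and the treated liver of each array, joined by a line, for the 10 genes. The lines of Mt1 and Mt2 all climb and those of Trf, Fth1, Cp and Hp all descend, while Hamp, Tfrc, Slc40a1 and Hpx cross.

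The list of other metallothionein and zinc genes had 11 measured members of 11, of which 3 were higher and 0 lower at an unadjusted p under 0.05 (27.3% against 27.7% of all genes), 0 passed the adjusted threshold, and the median was 0.084. Mt3, a metallothionein known from brain, had 0.15 ± 0.055 and Slc30a10, a metal exporter gene, had 0.21 ± 0.18 (SD, n = 4 each). Mtf1 itself had 0.0089 ± 0.089. Of 9 glucocorticoid-induced genes measured, 1 was higher and 2 lower at that level (33.3% against 27.7% of all genes, 11.2% higher and 16.6% lower), with a median of -0.051 and array medians of 0.019, -0.039, -0.18 and 0.0078. The lower genes were Ddit4 at -0.37 ± 0.24 and Fkbp5 at -0.23 ± 0.13, and the higher gene was Per1, also a clock gene, at 0.44 ± 0.38. Of the 9 means, 4 lay above 0 and 5 below.

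Of the iron regulators, Hamp, which encodes hepcidin, had ratios of -0.14, -0.30, -0.057 and 0.63, a mean of 0.034 ± 0.41 (SD, n = 4; SE 0.15, adjusted p = 0.900 by limma). Its levels were 17.39, 17.28, 17.37 and 17.29 in the untreated livers and 17.26, 16.98, 17.31 and 17.92 in the treated ones. The liver that stood apart was thus the treated liver of replicate 4, at percentile 98.2 of its array by ratio. Hamp2, a near copy of Hamp whose signal may be shared with it, had 0.77, -1.19, 2.18 and 1.63, a mean of 0.85 ± 1.48 that did not pass (adjusted p = 0.326 by limma). The order of the arrays differed between the 2 hepcidin genes.

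Tfrc, the transferrin receptor gene, had levels of 8.93, 9.06, 9.23 and 9.80 in treated and 9.39, 9.75, 9.22 and 9.42 in untreated livers, and the groups overlapped. Its ratios were -0.46, -0.69, 0.0066 and 0.38, a mean of -0.19 ± 0.48 (SD, n = 4; SE 0.18, adjusted p = 0.499 by limma). On its 10 spots the within-array SD was 0.078, 0.066, 0.037 and 0.062, with 10, 10, 3 and 0 spots below 0. On replicate 3 the spots lay on both sides of 0, and on the other arrays on 1 side. Of these spots 1, 0, 2 and 3 were left out as outliers.

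Slc40a1, the gene of the iron exporter ferroportin, had ratios of -0.14, 0.0081, 0.16 and 0.65, a mean of 0.17 ± 0.35 (SD, n = 4; SE 0.13, adjusted p = 0.418 by limma). Levels were 14.28, 14.10, 14.40 and 14.85 in treated and 14.42, 14.09, 14.24 and 14.20 in untreated livers, with the treated liver of replicate 4 highest. Ferroportin is made by macrophages as well as hepatocytes, and in whole liver fewer cells of a type and less RNA per cell cannot be told apart. The Kupffer cell and macrophage markers had array medians of -0.32, 0.24, 0.059 and 0.45. Of the 8 measured, 0, 7, 7 and 7 were above 0 on replicates 1 to 4, and their mean log2 level ran from 12.02 to 12.71 in treated and from 12.10 to 12.46 in untreated livers, all 8 well above background. Their part in the result was not tested. Timd4, a marker of resident Kupffer cells, had the smallest p of them, at 0.24 ± 0.23 (adjusted p = 0.172 by limma).

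Replicate 4 held the highest ratio of 7 of the 10 genes, Mt1, Mt2, Hamp, Tfrc, Slc40a1, Fth1 and Hpx, against 28.8% of all genes. The lowest ratio of Hp was on the same array. Levels spread more widely among treated than among untreated livers for 10 of 10 genes, against 66.7% of all genes. Every treated liver was read in Cy3 and every untreated liver in Cy5, so treatment and dye cannot be told apart in this spread. The SD among treated and untreated livers was 0.40 and 0.055 for Hamp, 0.11 and 0.021 for Trf, and 0.66 and 0.31 for Mt1. Both counts were noticed in these values and not tested.

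Trf, the transferrin gene, had levels of 17.48, 17.51, 17.28 and 17.49 in treated and 18.01, 18.03, 18.06 and 18.03 in untreated livers. All treated livers lay below all untreated ones. The ratios were -0.53, -0.52, -0.78 and -0.53, a mean of -0.59 ± 0.13 (SD, n = 4; SE 0.062, adjusted p = 0.144 by limma), which ranked 14 among all genes by p. The nearest genes to Trf in the 4 ratios were Vtn, the vitronectin gene (root mean square difference 0.0545), Dmxl2 (0.109) and Idh3a, of the citric acid cycle (0.136). Cp and Fth1 stood at ranks 145 and 159 of 16854, and Hp at 2614.

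Fth1, the gene of the ferritin heavy chain, had ratios of -0.32, -0.51, -0.30 and -0.28, a mean of -0.35 ± 0.10 (SD, n = 4; SE 0.056, adjusted p = 0.144 by limma). Its treated levels, 17.50, 17.40, 17.50 and 17.55, all lay below its untreated levels of 17.82, 17.91, 17.80 and 17.84. Cp, whose product oxidizes iron for loading onto transferrin, had 16.61, 16.51, 16.47 and 16.58 in treated against 16.86, 16.80, 16.92 and 16.85 in untreated livers, without overlap. Its ratios were -0.24, -0.29, -0.44 and -0.26, a mean of -0.31 ± 0.091 (SD, n = 4; SE 0.054, adjusted p = 0.144 by limma). The light chain gene Ftl1 had -0.061 ± 0.12.

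Hp, the haptoglobin gene, had the lowest mean of the 10, -0.88 ± 0.41 (SD, n = 4; SE 0.16, adjusted p = 0.144 by limma), at percentile 0.0998 of all genes. Its levels were 17.32, 17.79, 17.27 and 17.13 in treated and 18.27, 18.08, 18.28 and 18.40 in untreated livers. Every treated liver lay below every untreated one, with the smallest gap on replicate 2. The ratios were -0.95, -0.29, -1.01 and -1.27. Hpx, the hemopexin gene, had ratios of -0.31, 0.23, -0.20 and 0.30, a mean of 0.0068 ± 0.30 (SE 0.12, adjusted p = 0.974 by limma), with treated levels of 17.18, 17.51, 17.34 and 17.92 and untreated levels of 17.49, 17.27, 17.54 and 17.62. The groups of Hpx overlapped, and the ratio of Hp minus that of Hpx was -0.64, -0.53, -0.81 and -1.57.

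Replicate 2, where Hp was least low, was also where most of the acute phase genes listed were above 0. There, 14 of the 18 measured lay above 0 and the rest between -0.18 and -0.0085. Of the other genes described here as acute phase products, Hamp and Cp had -0.30 and -0.29 on that array and Hpx had 0.23. The serum amyloid genes Saa1, Saa2 and Saa3 had ratios of 1.25, 1.46 and 1.58 there and lay between -0.55 and 0.0054 on the other arrays, and Socs3, an inhibitor of cytokine signalling, had 1.42. The 18 acute phase genes measured had array medians of 0.0082, 0.26, -0.19 and -0.44, with 10, 14, 4 and 4 above 0. Their mean level ran from 12.64 to 13.02 in treated and from 12.56 to 13.10 in untreated livers. The median of their means was -0.0029. At an unadjusted p under 0.05, 1 was higher, Cd14 (0.20 ± 0.15), and 1 lower, Itih3 (-0.29 ± 0.13). That is 11.1% of the list, against 27.7% of all genes (11.2% higher and 16.6% lower). Marco, a macrophage receptor gene, had 2.19 on replicate 2. The part of these genes in the values of Hp and Hpx was not tested.

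Groups that did not overlap were found for 4 of the 10 genes, all as lower in treated livers (Trf, Fth1, Cp and Hp), against 7.06% of all genes in either direction, 4.52% as higher and 2.55% as lower. All 4 were bright. Trf, Fth1, Hp, Hamp and Hpx had a mean log2 intensity of 17 or more and Cp had 16.70. Among the 153 genes at 17 or more, the median ratio was -0.30, 65.4% were below 0 on 4 arrays and 71.9% were lower at an unadjusted p under 0.05. The 3 called of the 5 bright genes here stand beside that share. In the 292 genes between 16 and 17 the median was -0.051, and in the 3062 genes of the intensity bin that holds Mt1 and Mt2 it was -0.021. Of the 5 hepatocyte markers, Alb had -0.70 ± 0.25 and Apoa1 -0.26 ± 0.19, the 2 with the smallest p. Cyp2e1, brighter than Apoa1, had 0.47, -0.29, 0.0079 and -0.90, on both sides of 0. The mean level of the 5 markers ran from 16.76 to 16.97 in treated and from 17.12 to 17.23 in untreated livers.

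**Figure D4:**
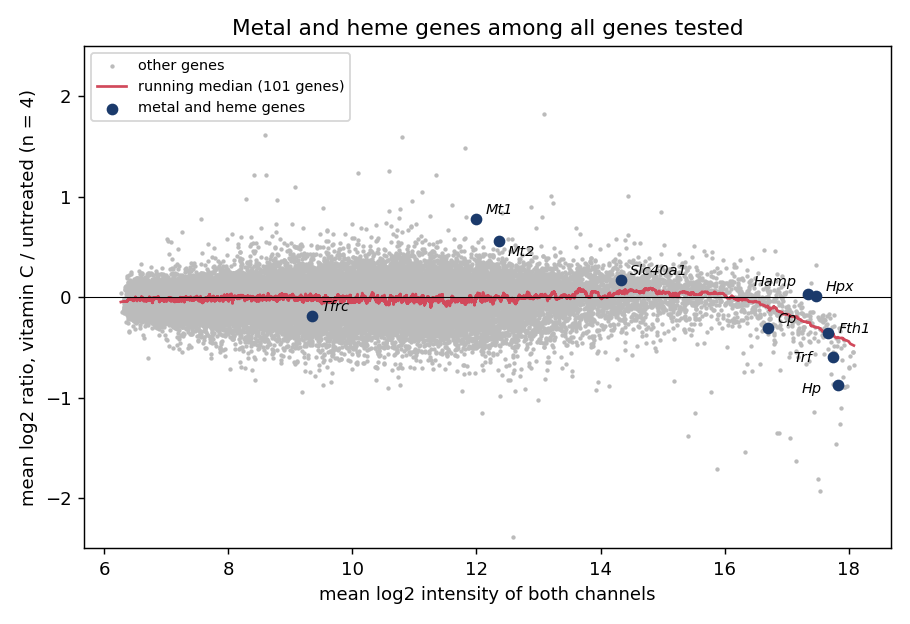
Mean log2 ratio of 4 arrays (vertical axis) against the mean log2 intensity of both channels for all 31074 genes tested, with a running median as a line and the 10 metal and heme genes marked. Mt1 and Mt2 lie at the upper edge of the cloud at a middling intensity, with some genes higher. The line turns down at the bright end, where Fth1 lies on it, Trf and Hp below it and Hamp and Hpx above it.

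The bright signals came from a second scan. The scanner software replaced bright spots by values scaled up from a scan at low gain, and this was so in both channels of all 4 arrays for Trf, Fth1, Cp, Hp, Hamp and Hpx, in 0 spots for Mt1, Mt2 and Tfrc, and in Cy5 on 4 arrays but in Cy3 on 1 for Slc40a1. Over the 835 genes read from the second scan in both channels of all arrays, the median ratio was -0.026, and 34.3% had an unadjusted p under 0.05 in either direction. No probe was saturated. After each array's running median along intensity was subtracted, Trf was at -0.21 and Hp at -0.43, Cp was at -0.21 and Fth1 at -0.046, and Fth1 no longer had an unadjusted p under 0.05 (adjusted p = 0.640 by limma). Hamp and Hpx were then at 0.28 and 0.32, while Mt1 and Mt2 were at 0.79 and 0.58.

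**Figure D5:**
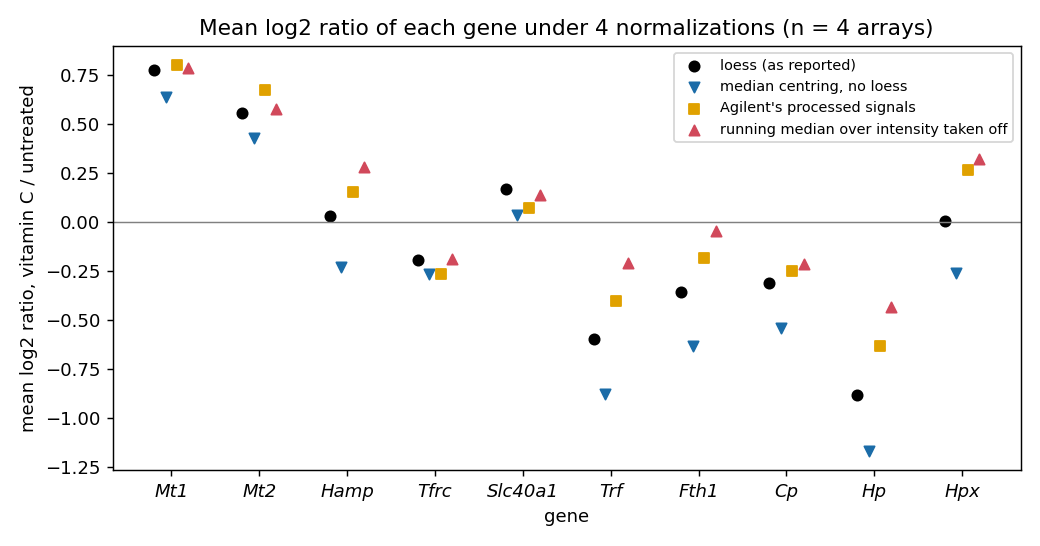
Mean log2 ratio of the 10 genes under 4 ways of normalizing the same 4 arrays. Mt1 and Mt2 stay above 0 and Trf, Fth1, Cp and Hp below 0 under each, with Fth1 nearest to 0 (-0.046) once the running median is taken off, and Hamp and Hpx lie on both sides of 0.

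The other genes of metal and heme handling were read from lists. Of 70 measured on 5 lists, 18 were higher and 4 lower at an unadjusted p under 0.05, 31.4% against 27.7% of all genes (11.2% higher and 16.6% lower); 0 passed the adjusted threshold, and the median was 0.093. The iron list had 27 measured genes, 3 higher and 1 lower, with a median of 0.049. Tmprss6, the protease gene that restrains hepcidin, had 0.28, 0.21, 0.26 and 0.19, a mean of 0.24 ± 0.040 (SD, n = 4; adjusted p = 0.144 by limma), and Ireb2, which encodes an iron regulatory protein, had 0.41 ± 0.30. The lower gene was Ftmt, the mitochondrial ferritin gene, at -0.32 ± 0.21. Tfr2 and Bmp6, upstream of hepcidin, had -0.086 ± 0.084 and 0.028 ± 0.13.

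Copper genes numbered 10, of which 4 were higher and 1 lower, against 11.2% and 16.6% of all genes, with a median of 0.098. Commd1, which takes part in copper excretion, had 0.21 ± 0.054 and Cutc 0.19 ± 0.072 (SD, n = 4 each; adjusted p = 0.144 by limma for both). The lower gene was Atp7b, the copper pump that loads ceruloplasmin in hepatocytes, with -0.16, -0.15, -0.074 and -0.12, a mean of -0.12 ± 0.036 (adjusted p = 0.162 by limma). The carrier Slc31a1, which takes up copper, had 0.10 ± 0.050.

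Heme synthesis had 9 measured genes, 4 higher and 0 lower at an unadjusted p under 0.05, against 11.2% and 16.6% of all genes, with a median of 0.17. Fech, which encodes the ferrochelatase that inserts iron, had 0.14, 0.14, 0.30 and 0.44, a mean of 0.25 ± 0.15 (SD, n = 4; adjusted p = 0.144 by limma). Alas1, the rate-limiting enzyme gene of the liver, had -0.87, -0.65, -0.84 and 0.39, a mean of -0.49 ± 0.60 (adjusted p = 0.203 by limma), with replicate 4 alone above 0. Heme breakdown and transport had 13 measured genes, 4 higher and 2 lower against the same shares, with a median of 0.17. The biliverdin reductase genes Blvrb and Blvra had 0.36 ± 0.20 and 0.24 ± 0.12, and the lower genes were Pgrmc1, a heme-binding membrane protein gene with a log2 intensity of 17.2 (-0.46 ± 0.15), and the exporter gene Abcg2 (-0.23 ± 0.22). Hmox1, the inducible heme oxygenase gene, had 0.011, -0.071, 0.26 and 0.65, a mean of 0.21 ± 0.32.

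Markers of red blood cells, which carry hemoglobin, had 5 measured genes with array medians of 0.073, 0.034, -0.21 and 0.053 and a mean level of 11.20 to 11.34 in treated and 11.16 to 11.62 in untreated livers. Hba-a1, a hemoglobin chain gene, had 0.33, -1.54, -1.52 and -0.24, a mean of -0.74 ± 0.94 (adjusted p = 0.214 by limma), and Slc4a1, of the red cell membrane, had -0.18 ± 0.17. Neutrophil markers had a median of 0.070 with S100a8 at 0.20 ± 0.13. T and NK cell markers had a median of -0.00045 with Nkg7 at 0.60 ± 0.40 and Cd8a at -0.19 ± 0.14. Endothelial, stellate cell and bile duct markers had medians of 0.025, 0.0090 and -0.061. At an unadjusted p under 0.05, red cell markers had 0 higher and 1 lower of 5, and neutrophil markers 1 higher and 0 lower of 5. T and NK cell markers had 1 higher and 2 lower of 6. The other 3 lists had 0, against 27.7% of all genes (11.2% higher and 16.6% lower).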

How the data were processed

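Total RNA of 4 treated and 4 untreated livers was measured on 4 Agilent 2-colour mouse arrays. Per the file headers, the spot intensity values come from version 10.5.1.1 of Agilent Feature Extraction, and the authors deposited median signals, backgrounds, processed signals and log10 ratios (red over green). They also deposited a table of log2 values; the submitters' processing notes name limma, and its steps are not given in these sources. Here ratios of Cy3 over Cy5 were computed after normexp (offset 50) on the median signals and loess within arrays, with control spots at weight 0, outlier spots left out and repeat spots averaged. Levels came from separate channels after Aquantile. R 4.3.3, limma 3.58.1, statmod 1.5.0 and Python 3.11.15 were used. Of 41174 probes, 25089 (60.9%) matched 1 symbol in RefSeq's table of GRCm38.p6, which is not the array's build. The only coordinates given are those of the promoter windows of Mt1 and Mt2, in GRCm38.p6. A gene was its brightest probe, kept if either dye was well above background on 3 or more of the 4 arrays. limma's moderated test was adjusted by Benjamini-Hochberg over all 31074 genes at a threshold of 0.05. The number of arrays limits the precision, and p-values measure the spread between these 4 pairs. Alternatives were no loess, processed signals, no background correction, scaling, a running median, saturated spots, the dim-probe filter, probes, a variance trend, separate channels, the deposited table and leaving out each array. Only the loess and the limma test were tried on simulated log ratios. Background correction, spot flags, the dim-probe filter and the second scan were not simulated. Named were all 10 genes, up to 2 per direction of each pathway list with the smallest p under 0.05, up to 2 of each context or marker list, and the 3 genes nearest to Mt1 and Trf; Mtf1, Hamp2, Ftl1, Tfr2, Bmp6, Slc31a1, Alas1, Hmox1, Saa1, Saa2, Saa3, Socs3, Marco, Per1, Cyp2e1 and Hba-a1 were added after their values were seen. One gene that this rule names is not reported here. The genes, lists and tests were chosen with earlier results of these data known.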

Additional observations from a re-analysis of the deposited data

Results flagged for a closer look

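In groups of 4, a sample was picked out where its gap to the nearest other, divided by the range, was above Dixon's critical value for 4 samples; 30 groups were examined (the 10 ratios and the 10 levels of each group of livers), and chance gives about 1 in 20. The ratio of Trf on replicate 3, -0.78 against -0.53 to -0.52 on the other arrays, had a value of 0.964. The level of Trf in the treated liver of replicate 3, 17.28 against 17.48 to 17.51, had a value of 0.868. Each ratio is the difference of 2 levels, so the 30 groups are not independent and both Trf flags rest on this liver. The ratio of Fth1 on replicate 2, -0.51 against -0.32 to -0.28, had a value of 0.842. Without the array concerned, the mean was -0.53 for Trf and -0.30 for Fth1.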

How the results depend on the processing

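The 10 genes were refitted under 12 other settings and without each array in turn. The saturated-spot, dim-probe, probe, variance-trend and separate-channel settings left each mean as reported, so directions could not change there. Under the remaining settings and without each array, Mt1, Mt2, Slc40a1, Trf, Tfrc, Fth1, Cp and Hp kept their direction. The deposited table was first turned to treated over untreated by the sign of its correlation, so its overall direction was set beforehand. Mt1, Mt2, Trf, Cp and Hp kept an unadjusted p under 0.05 throughout. With an array left out, Slc40a1 ran from 0.0077 (without replicate 4) to 0.27 and Tfrc from -0.38 (without replicate 4, where its unadjusted p was under 0.05) to -0.024 (without replicate 2). Fth1 lost it with Agilent's processed signals (-0.18) and with a running median taken off (-0.046). Hamp turned to -0.23 without loess, to -0.018 with arrays scaled to one spread and to -0.17 without replicate 4 (-0.17 to 0.15 with an array left out). Hpx turned to -0.26 without loess, to -0.068 without replicate 2 and to -0.090 without replicate 4 (-0.090 to 0.11 with an array left out). The count of genes past the adjusted threshold, 0 as reported, was 9634 without loess and 885 with separate channels and the array as a random replicate block, and 0 to 8753 with an array left out, the highest without replicate 2; of the 10 genes, 6, 5 and 0 to 6 passed there. Without loess and without replicate 2 these were Mt1, Mt2, Trf, Cp, Fth1 and Hp (adjusted p of 0.0098 to 0.043 by limma), and with the replicate block all of them but Mt1. The count at an unadjusted p under 0.05, 8610 as reported, was 14655 without loess, 4466 with separate channels and no replicate block, and 3114 to 13561 with an array left out. The causes were not tested. Of the 10 genes, 5 to 7 had an unadjusted p under 0.05 in every setting. Each gene has 1 probe here, and the brightest signals come from a second scan, so no other probe bears on a value.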
